A study of Mus musculus with 10 samples.

Results

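Chromatin accessibility was compared between cKIT+ spermatogonia of wild-type mice and of mice lacking Smarca5 in the germ line. The 4 libraries that the labels assign to cKIT+ cells were used, of 8 ATAC-seq libraries and 10 samples in the series: 2 of wild type C57BL6 mice and 2 of Smarca5 fl/delta; Ddx4-Cre+ mice (cKO). Each library was made from 50000 cells sorted from testis. The other 4 ATAC-seq libraries, of cells sorted on 4C DNA content (2 wild type, 2 cKO), served for comparison with a later stage. Ddx4-Cre is active in germ cells, so the somatic cells of the cKO testis keep the floxed allele, and one Smarca5 allele is already deleted (delta) in every cell. The labels give neither an age nor a littermate control, and do not say that replicates came from separate animals, so any p measures only the spread between these libraries. The cKIT+ labels also carry the text on the 4C sort, and the line on library construction set the group. The unit of the comparison was the peak list that accompanies each library. Peaks on chromosomes 1 to 19 were merged over the 4 lists into 160158 regions, and a library counted as holding a region when its list had a peak that overlapped it by at least 1 bp.

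SMARCA5 (SNF2H) is an ATPase of the ISWI family of chromatin remodelers, which slide and space nucleosomes. CTCF is among the factors whose binding is known to need SMARCA5. KIT is the receptor for stem cell factor and marks spermatogonia that have left the stem and progenitor pool under retinoic acid and are dividing toward meiosis. ATAC-seq inserts adapters into open DNA with the Tn5 transposase, so a peak marks DNA that was accessible in part of the sorted cells.

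Promoters that illustrate the presence and absence of peaks are given first, each as the 250 bases before the RefSeq gene start (GRCm38.p6), 5′ to 3′ on the strand of the gene. Capitals mark the motifs found among 11 that were searched on both strands. Kit is the marker of the sort and Smarca5 the targeted gene, and both had a start peak in all 4 lists. Ccnb1ip1, Lhx1 and Tssk2 had one in each cKO list and none in wild type. The Kit sequence lies at chr5:75574737-75574986 on the plus strand, Smarca5 at chr8:80739460-80739709 on the minus strand, Ccnb1ip1 at chr14:50795729-50795978 on the minus strand, Lhx1 at chr11:84525535-84525784 on the minus strand and Tssk2 at chr16:17898387-17898636 on the plus strand.
Kit: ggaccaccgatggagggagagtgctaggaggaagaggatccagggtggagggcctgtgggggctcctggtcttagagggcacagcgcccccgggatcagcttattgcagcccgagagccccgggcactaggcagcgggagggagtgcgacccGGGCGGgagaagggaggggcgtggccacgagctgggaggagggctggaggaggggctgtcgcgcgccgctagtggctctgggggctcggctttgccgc
Smarca5: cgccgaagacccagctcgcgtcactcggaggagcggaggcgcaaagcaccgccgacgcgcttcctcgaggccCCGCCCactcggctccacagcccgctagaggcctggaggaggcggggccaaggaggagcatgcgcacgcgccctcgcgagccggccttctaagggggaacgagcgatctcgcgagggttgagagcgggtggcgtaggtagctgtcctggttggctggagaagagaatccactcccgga
Ccnb1ip1: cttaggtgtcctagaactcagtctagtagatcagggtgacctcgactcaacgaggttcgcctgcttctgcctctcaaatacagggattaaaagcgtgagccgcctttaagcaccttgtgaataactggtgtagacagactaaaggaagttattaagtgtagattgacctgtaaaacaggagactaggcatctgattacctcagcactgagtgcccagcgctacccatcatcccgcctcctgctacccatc
Lhx1: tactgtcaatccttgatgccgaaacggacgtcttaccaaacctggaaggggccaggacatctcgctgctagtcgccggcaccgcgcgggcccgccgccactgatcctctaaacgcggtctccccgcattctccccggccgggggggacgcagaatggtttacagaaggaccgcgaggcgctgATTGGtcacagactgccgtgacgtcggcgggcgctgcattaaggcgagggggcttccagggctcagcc
Tssk2: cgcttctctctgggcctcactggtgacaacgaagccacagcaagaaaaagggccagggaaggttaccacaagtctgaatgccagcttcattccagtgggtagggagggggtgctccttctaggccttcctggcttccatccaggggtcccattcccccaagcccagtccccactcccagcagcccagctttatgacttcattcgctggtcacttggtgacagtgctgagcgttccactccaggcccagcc
The capitals in Kit and Smarca5 are a GC box (GGGCGG, on the other strand in Smarca5), and those in Lhx1 a CCAAT box on the other strand. None of the 11 motifs was found in the Ccnb1ip1 and Tssk2 sequences. They held 7 and 4 CpG dinucleotides, against 17 in Kit, 29 in Smarca5 and 26 in Lhx1.

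One wild-type library stood apart from the other 3 and is weighed throughout. Wild type 1 listed 43672 autosomal peaks, against 110176 in wild type 2, 124415 in cKO 1 and 119128 in cKO 2. Its peaks covered 15.4 Mb, against 44.5 Mb for wild type 2 and 47.0 and 39.3 Mb for cKO, and 28.9% of them reached a −log10 q of 5, against 42.7% and then 45.3% and 54.1%. The names of its peaks carry a different prefix from those of the other 7 lists. No read totals accompany the lists, so the depth is unknown, and lists of equal length were also made by keeping in each the 43672 peaks with the highest −log10 p. The log2 ratio of cKO to wild type was 0.66 for peak number and 0.53 for covered length (exact permutation test over libraries, two-sided, p = 0.333 and p = 0.667, where 0.333 is the smallest p that 2 against 2 allows). Without wild type 1 the ratios were 0.14 and −0.04, so their size and, for covered length, the direction rested on that library.

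Genes that mark differentiating spermatogonia were open in both genotypes. A gene counted as having a start peak when a merged region held by the library lay within 1 kb of an annotated start, or of either gene end where no strand was available. Of 10 such markers, 9 had a start peak in wild type 1 and 10 in each other library, among them Stra8, the retinoic acid target that licenses meiosis, and the spermatogonial transcription factors Sohlh1, Sohlh2 and Dmrt1. Of all 33069 autosomal genes, a start peak was found at 15969 and 19965 in the wild-type libraries and at 20682 and 20208 in the cKO libraries. The Kit start peak had folds of 5.49 and 6.71 in the wild-type libraries and 5.71 and 5.80 in the cKO libraries. Fold is the enrichment of a peak over the local background of its own library, as deposited. Within Kit, 16 merged regions were counted, of which 2 had a peak in wild type 1, 12 in wild type 2, 14 in cKO 1 and 9 in cKO 2. The highest of the intragenic regions (chr5:75628532-75629052) had folds of 8.81 in wild type 2, 9.18 in cKO 1 and 8.36 in cKO 2, no peak in wild type 1, and none in any 4C-sorted library.

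Start peaks at genes of other testis cells were also present. They were fewest in wild type 1 for Sertoli, Leydig, stromal and macrophage markers, as they were over all genes and for the undifferentiated (12, 14, 15 and 15 of 18) and retinoid lists (9, 14, 16 and 15 of 17). In the order wild type 1, wild type 2, cKO 1 and cKO 2, such a peak was found at 5, 9, 10 and 11 of 11 Sertoli cell markers, 2, 7, 7 and 7 of 8 Leydig cell markers, and 4, 9, 7 and 9 of 9 peritubular and stromal markers. Macrophage markers had one at 3, 10, 7 and 5 of 10 genes, and summed folds were 10.2 and 51.4 in wild type against 34.3 and 26.5 in cKO. Adgre1, Cd68 and Ptprc, which define macrophages and leukocytes, had a start peak in wild type 2 and in no other list. T cell markers had one at 0, 2, 2 and 3 of 6 genes, mast cell markers at 0, 1, 0 and 0 of 6, endothelial markers at 2, 2, 3 and 2 of 6, and erythroid markers at 3, 3, 2 and 2 of 7. The part of these cells in the results that follow was not tested, and in sorted bulk libraries fewer cells of a type cannot be told apart from less accessible chromatin per cell.

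**Figure D1:**
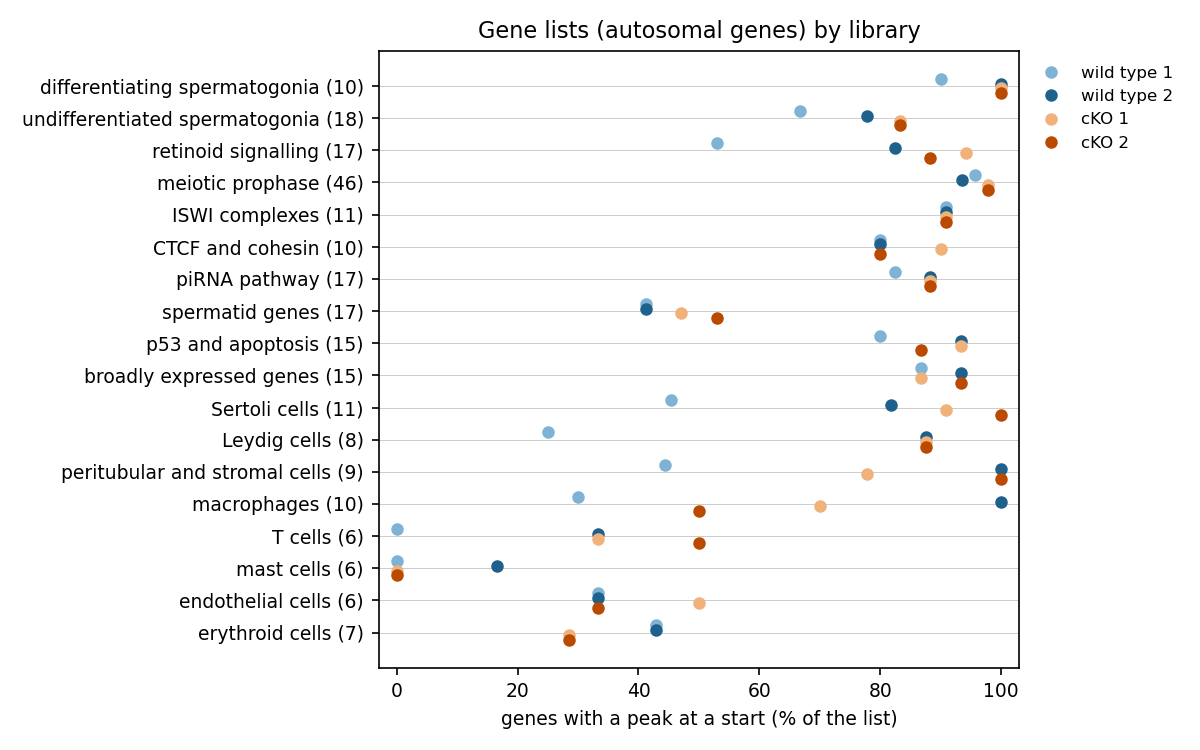
Share of the autosomal genes of each list with a peak at a start (x axis, percent; the number of genes is in parentheses), 1 point per library. Meiotic, ISWI and piRNA lists sit close together in the 4 libraries, while Sertoli, Leydig, stromal and macrophage lists are lowest in wild type 1, as are all genes together, and the macrophage list is highest in wild type 2.

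Most regions did not follow genotype. The commonest combination was a peak in wild type 2 and both cKO libraries and not in wild type 1, at 53668 regions (33.5%), followed by a peak in all 4 libraries at 29026 (18.1%). Regions with a peak in each cKO library but no wild-type one, called cKO-only here, numbered 14339 (8.95% of all merged regions), and the opposite class, called wild-type-only, 1494 (0.933%). In the equal-length lists 2250 of 74240 regions were cKO-only (3.03%) and 517 wild-type-only (0.696%), while 17664 (23.8%) were held by wild type 1 alone. Without wild type 1 the counts were 16096 present in both cKO libraries and absent from wild type 2, and 16056 present in wild type 2 and absent from both. Without wild type 2 they were 69293 and 9682. Without cKO 1 the cKO-only count was 24534, and without cKO 2 it was 31214. With a library left out, its genotype is represented by 1 list and the other by 2, so these counts are not like for like and give no measure of the excess.

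**Figure D2:**
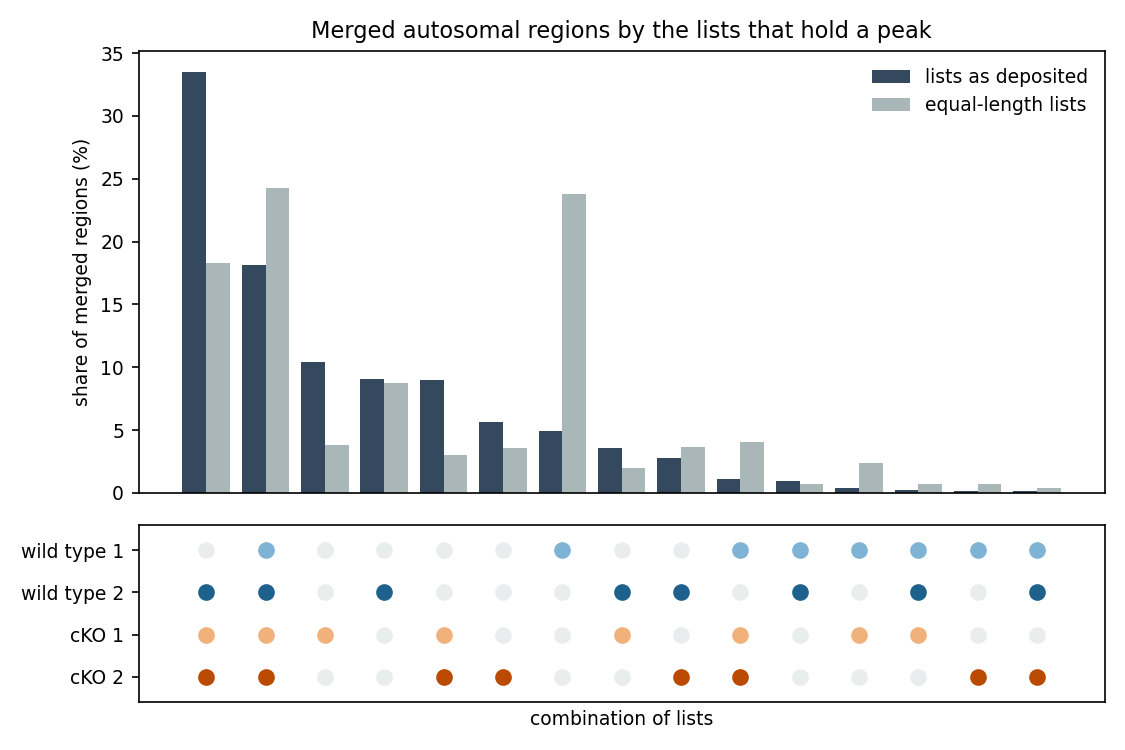
Share of merged autosomal regions (y axis, percent) for each combination of lists that hold a peak, in the lists as deposited (160158 regions) and in equal-length lists (74240 regions). Filled points under each bar pair mark the libraries with a peak. The combination of wild type 2 and both cKO libraries leads as deposited, at 33.5%, and regions of wild type 1 alone reach 23.8% in equal-length lists.

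The overlap of covered bases gave the same order. As a Jaccard index (shared bases over all covered bases), the cKO libraries shared 0.620 of their bases with each other and 0.538 and 0.552 with wild type 2. Wild type 1 shared 0.242 with wild type 2 and 0.241 and 0.272 with the cKO libraries. The mean within genotypes exceeded the mean across genotypes by 0.0300 (exact permutation test, p = 0.333). The difference was −0.17 without cKO 1 and −0.148 without cKO 2, where the wild-type pair is the only pair within a genotype. It was 0.075 without wild type 1 and 0.363 without wild type 2, where the cKO pair is the only one. In equal-length lists the cKO pair stood at 0.671, wild type 2 with cKO at 0.574 and 0.591, and the wild-type pair at 0.292.

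Regions that followed genotype were smaller and weaker than those in all 4 libraries. The cKO-only regions had a median width of 189 bp and median folds of 3.73 and 3.98, and the wild-type-only regions 461 bp and 3.49 and 3.26, against 734.5 bp and folds of 4.32 and 5.32 (wild type) and 6.74 and 6.81 (cKO) for regions with a peak in all 4 libraries. Within 1 kb of a gene start lay 7.02% of cKO-only, 4.42% of wild-type-only and 45.1% of the all-4 regions. Regions over 1 kb from any gene made up 38.4%, 49.7% and 23.0%. Over all merged regions the median width was 287 bp, with 14.5% at gene starts and 32.6% over 1 kb from any gene. Regions held by 1 library only had 129 bp, 6.30% and 37.6%. Those held by wild type 2 and both cKO libraries had 389 bp, 9.12% and 31.2%. Small size and few gene starts were therefore not particular to regions that followed genotype. Peaks of later germ cells, which the classes did not use, covered few of them: 8.56% of cKO-only and 11.2% of wild-type-only regions had a peak in both wild-type 4C-sorted libraries, against 62.7% of the all-4 regions. In both cKO 4C-sorted libraries the shares were 9.91%, 10.5% and 67.6%. Regions held by wild type 2 and both cKO libraries resembled the cKO-only class in this respect, with 7.59% and 8.78%. Regions of 1 library only had 4.49% and 4.97%, and all merged regions 17.0% and 18.7%. In equal-length lists 53.6% of the wild-type-only regions had a peak in both wild-type 4C-sorted libraries, and 32.3% lay at gene starts, so that class changed its makeup with list length. Across chromosomes the cKO-only share ran from 8.27% (chromosome 19) to 10.6% (chromosome 18).

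Of the cKO-only regions, 199 were also cKO-only in the equal-length lists, and 13 wild-type-only regions kept that state. The strongest of the 199 by the lower of their 2 folds lay within Traf3ip1, which encodes an intraflagellar transport protein (chr1:91523892-91524012), with folds of 9.16 and 9.18. Those that followed were near Igll1 (8.68 and 9.54), near Ercc6, a SWI/SNF-family ATPase of transcription-coupled repair (9.91 and 8.46), near Sfpq, a splicing factor gene (9.04 and 7.97), near Zbtb8b (7.97 and 8.07) and within Add3, an adducin gene of the membrane skeleton (9.65 and 7.96). The remaining named regions were near Gm40831, Mdga1 and Lyrm9 and within Fcgr4, with folds from 7.67 to 10.8. These are single peaks absent from both wild-type lists, and since every list is cut at a −log10 q near 1, absence says only that no peak was called. The strongest wild-type-only region was at the start of Gm52385, with folds of 7.81 and 9.71. It was followed by the start of 9330117O12Rik (6.18 and 6.26), a region near Fstl4 (6.17 and 5.45) and one within Spata17, a testis-expressed gene (5.36 and 7.51). No gene of the studied lists was among these 20 regions.

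Few genes had a start peak that followed genotype. Of 33069 autosomal protein-coding and long noncoding RNA genes, 15359 had a start peak in all 4 libraries, 3677 in all but wild type 1 and 11304 in none. Those with one in each cKO library but no wild-type one numbered 583 (1.76%), and the reverse 49 (0.148%). In equal-length lists the counts were 95 (0.287%) and 176 (0.532%), so the direction of the difference depended on list length. Within the 18 gene lists, 7 genes were cKO-only and 1 wild-type-only; in equal-length lists none was cKO-only and 4 were wild-type-only (Aldh1a3, Piwil1, Cd14 and Cdh5).

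The 7 genes belonged to 6 lists. Among genes of undifferentiated spermatogonia, Lhx1, a GDNF-responsive homeobox gene of the stem cell pool, had folds of 2.58 and 3.45 in cKO. Pax7, which marks a rare stem cell subset, had 3.73 and 3.15. Both had start peaks in all 4 of the 4C-sorted libraries as well, at 4.50 and 6.33 (wild type) and 4.73 and 6.26 (cKO) for Lhx1. Stra6, the retinol uptake receptor, had 6.49 and 4.59, which was the highest of the 7. Ccnb1ip1 (HEI10), a ubiquitin ligase of meiotic crossover sites, had 3.13 and 4.22 in cKIT+ cKO cells, against 6.39 and 6.43 in 4C-sorted cells of wild type and 5.40 and 5.57 in those of cKO. Its promoter was thus in the 4C-sorted lists of both genotypes. Tssk2, a spermatid kinase, had 3.23 and 3.48, Fshr, the follicle-stimulating hormone receptor of Sertoli cells, 3.90 and 3.26, and Cd3e, a T cell receptor chain, 3.48 and 3.73. The wild-type-only gene was Hba-a1, an alpha-globin gene, with 3.13 and 3.15. Apart from Stra6 in cKO 1, the folds of these 8 genes were below 5, beside median folds over all peaks of 3.83 and 4.18 in the wild-type and 4.36 and 4.76 in the cKO libraries.

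Promoters differed in base composition with their state. RefSeq sequences from 250 bases before to 50 bases after the start were available for 31365 autosomal promoters. Those with a peak in all 4 libraries (13097) had a median GC content of 62.3% and 22 CpG dinucleotides, those in wild type 2 and both cKO (2436) 54.3% and 7, cKO-only promoters (316) 52.8% and 8, and those without a peak (14227) 46.3% and 3. The GC box GGGCGG, bound by SP and KLF factors, was found in 36.0% of all promoters, in 67.4% of the all-4 and in 32.3% of the cKO-only promoters. Palindromic NRF1 sites were in 0.963%, 2.18% and 0.949%, and E2F sites (GGCGGGAA) in 2.17%, 4.21% and 0.949%. The cKO-only shares of these 2 motifs rest on 3 promoters each. The MYB core AACNGTT, bound among others by the meiotic regulator MYBL1, was in 4.32%, 2.93% and 5.06%, and a CTCF core in 2.47%, 3.18% and 2.22%. The MYB core was also in 5.13% of promoters in wild type 2 and both cKO and in 5.45% of those without a peak. Its cKO-only share was thus not particular to that class. These shares describe letters in the window and share base composition with one another.

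At regions held by all 4 libraries, no single region passed the test of a difference in fold. Limma on log2 fold, with each library centred on its median over the 29026 regions, called 0 regions higher and 0 lower in cKO at a Benjamini-Hochberg adjusted p of 0.05 (0% in each direction), and 1455 higher and 2499 lower had an unadjusted p under 0.05. Quantile and cyclic loess normalisation, no centring and a fit without a mean trend also gave 0 calls in both directions. Without centring, however, 10214 higher and 82 lower had an unadjusted limma p under 0.05. The smallest adjusted p there was 0.0536, just above the threshold. Leaving out a library gave 931 higher and 661 lower without wild type 1 (described further on), 0 and 0 without wild type 2, 0 and 10 without cKO 1 and 0 and 21 without cKO 2. Before centring, the folds were higher in cKO: median folds were 4.32 and 5.32 in wild type against 6.74 and 6.81 in cKO, a median difference of 0.41 on the log2 scale. Uncentred groups did not overlap at 21608 regions with cKO higher (74.4%) and at 402 with cKO lower (1.38%). Centred values gave 4272 (14.7%) and 10217 (35.2%), and loess 6091 (21%) and 6924 (23.9%). Directions below are therefore relative to the median of each library unless said otherwise. Centring on these medians removed 0.50 between the genotypes, more than the median difference of 0.41. The median centred difference over all 29026 regions was therefore −0.09. Across regions, log2 fold correlated at a Pearson r of 0.915 between the cKO libraries, 0.810 and 0.838 between wild type 2 and cKO, and 0.702 to 0.729 between wild type 1 and the others; regions are not independent replicates.

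Gene starts and other regions differed in how their fold compared between the genotypes. At the 13087 shared regions at gene starts, median folds were 4.75 and 6.12 in wild type against 7.04 and 7.17 in cKO. At the 6687 shared regions outside genes they were 4.13 and 4.90, then 6.55 and 6.62. Both classes were higher in cKO before centring, the second by more. Within each library, the median log2 fold at gene starts exceeded that outside genes by 0.20 and 0.32 in wild type and by 0.10 and 0.11 in cKO. The groups did not overlap, and the difference was −0.15 (exact permutation test, two-sided, p = 0.333, the smallest p possible). Since this contrast lies within a library, a constant factor on its folds cancels, but a difference in spread does not. The SD of log2 fold was 0.43 in wild type 1, 0.52 in wild type 2 and 0.54 in each cKO library. The difference was −0.21 in equal-length lists, −0.18 for peaks that reached a −log10 q of 5 and −0.16 at regions with exactly 1 peak in each list. It was −0.02 without wild type 1, when regions needed no peak in that library (0.26 in wild type 2, 0.27 and 0.21 in cKO), and −0.06 without wild type 2. The size of the difference thus depended on which regions and which wild-type library entered. At the regions held by all 8 lists, the same excess was 0.26 and 0.30 in wild-type cKIT+ cells against 0.19 and 0.18 in cKO ones. It was 0.35 and 0.32 in wild-type 4C-sorted cells against 0.25 and 0.22 in cKO ones. In both sorts the cKO values lay below the wild-type values there.

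**Figure D3:**
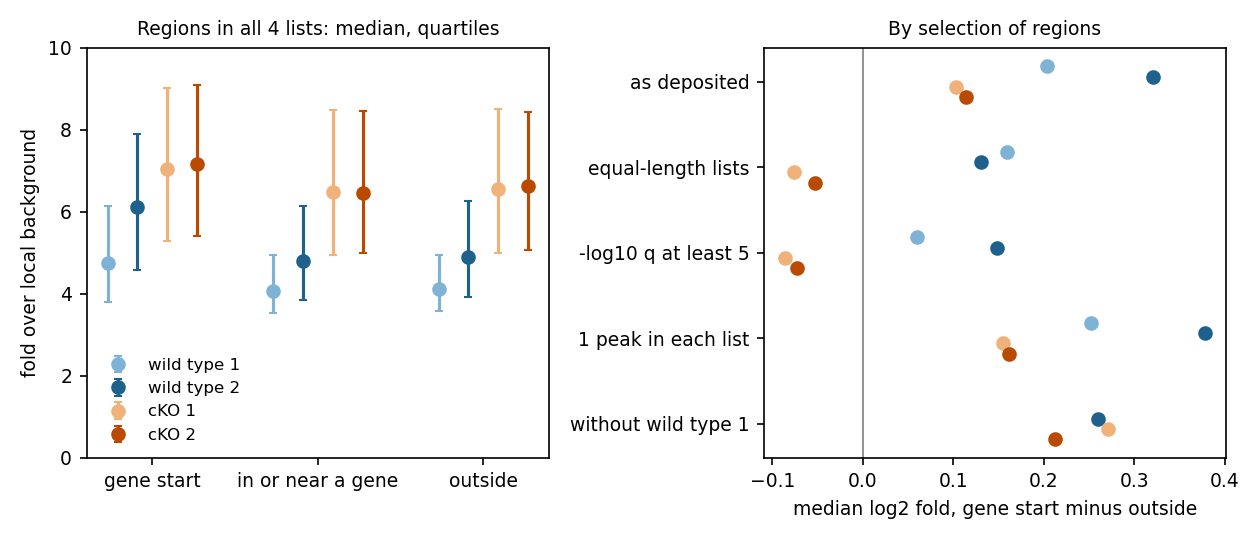
Left, fold over local background at regions held by all 4 lists (points are medians, bars quartiles over regions) at gene starts, in or near genes and outside genes. Right, the median log2 fold at gene starts minus that outside genes, 1 point per library, for each selection of regions. The cKO points lie left of both wild-type points in the first 4 selections and interleave with wild type 2 when wild type 1 is left out.

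After centring, 682 gene-start regions were higher in both cKO than in both wild-type libraries (5.21%) and 6383 lower (48.8%). In or near genes the shares were 23.1% and 23.8%, and outside genes 21.8% and 24.4%. Median centred differences were −0.15, 0.01 and −0.01, beside −0.09 over all shared regions. Quantile normalisation gave −0.10, 0.07 and 0.05 and loess −0.09, 0.09 and 0.07, so the order of the classes was kept and the sign outside gene starts was not fixed. Promoters whose shared region was lower in cKO without overlap (6813) held a GC box in 71.0% and had a median of 24 CpG, and those higher (514) held one in 56.0% and had 18. E-boxes (CACGTG) were in 10.5% and 9.34%, and CCAAT boxes in 38.4% and 40.1%. Over all 13097 promoters with a peak in all 4 libraries, the GC box share was 67.4% and the median 22 CpG. E-boxes were in 10.7% of them and CCAAT boxes in 38.3%, so the lower group lay near these shares.

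The regions with the smallest p are described by their values, none having passed the threshold. Among those higher in cKO, a region within Prdm16, a zinc finger regulator of cell fate, had 4.52 and 5.87 against 13.4 and 13.6 (centred difference 0.89 ± 0.13, SE, limma, adjusted p = 0.337). Of the 4C-sorted libraries 1 had a peak there, at 4.20. Within Igsf5, a junctional adhesion gene, folds were 3.85 and 4.36 against 11.3 and 10.9. Within Cyth4, an exchange factor of ARF GTPases, they were 3.67 and 4.62 against 11.5 and 10.3. Neither region had a peak in a 4C-sorted library. Regions within C2cd4b, Uaca, Dpysl5 and Gm31278 and near Tnrc18 and 5730460C07Rik were the others described, with wild-type folds of 2.90 to 7.64 and cKO folds of 8.21 to 16.9. None of the 9 lay at a gene start. All 9 had cKO folds above both wild-type folds before centring, but the choice of regions fixed this. They were chosen for separate centred values, and centring lowered the cKO libraries by more than the wild-type ones.

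Among those lower in cKO, the smallest p belonged to a region within the long noncoding RNA gene Gm30636 (chr16:45352906-45353187). Its folds were 16.3 and 18.6 in wild type against 8.63 and 9.19 in cKO, a centred difference of −1.46 ± 0.12 (limma, adjusted p = 0.106). A region whose nearest gene was Cdkn2a, which encodes cell cycle inhibitors of the RB and p53 pathways, lay at chr4:89264682-89264923. It had 13.03 and 15.8 in wild type against 6.49 and 7.42 in cKO (−1.55 ± 0.13, adjusted p = 0.106). The wild-type libraries were both high at these regions, and the cKO values were also lower before centring. The region near Gm9631 had 20.0 and 27.7 against 14.8 and 15.1 (−1.15 ± 0.10, adjusted p = 0.108), and 29.2 and 27.9 against 12.1 and 12.5 in 4C-sorted cells, so its cKO values were the lower ones in both sorts. Near Rfc3, a clamp loader subunit gene, cKIT+ folds were 26.3 and 31.2 against 26.0 and 26.3, and 4C-sorted folds 32.9 and 29.4 against 11.4 and 20.0. The regions near Gm9631 (chr11:121981857-121982557) and Rfc3 (chr5:151734482-151734717) had peaks in all 8 lists. No filter for repeats or chromosome ends was applied here, and the part of repeats in these folds was not tested. Near Gm15767 cKIT+ folds were 7.80 and 7.77 against 4.76 and 4.82, while 4C-sorted folds ran from 17.2 to 22.5 with no order by genotype. Within Rps6kc1 the folds were 8.39 and 9.33 against 4.61 and 5.59. Regions within Gm35223, near Gm17644 and D430019H16Rik, and 1 on chromosome 18 with no gene within 100 kb were the others, with centred differences from −1.92 to −1.28. Before centring the cKO folds were below both wild-type folds at 9 of the 10, the exception being Rfc3, where cKO 2 (26.29) and wild type 1 (26.28) were level. All 19 regions described kept their direction when each library was left out. They were picked from these same libraries by small p, separate groups and a sign that held without wild type 1. Such refits are therefore no independent support. Calls made without wild type 1 also rested on the scaling, as described further on.

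**Figure D4:**
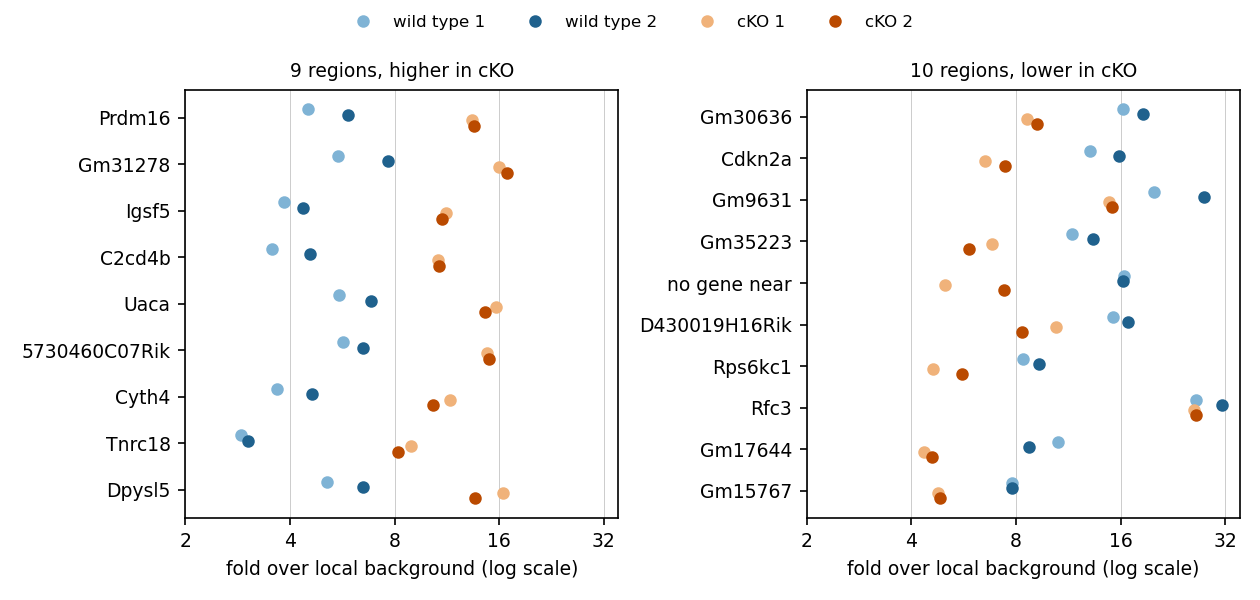
Fold over local background (x axis, log scale) in the 4 libraries at 9 shared regions higher and 10 lower in cKO, from those with the smallest p, named by the gene they lie in or the nearest gene. Regions were chosen for separate centred values, which on the left also fixes the separation before centring. On the right the groups are separate before centring except near Rfc3. No region passed an adjusted p of 0.05.

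Gene lists were read beside all shared regions at gene starts, 13087 in number, whose median centred difference was −0.15. Here and below, each list gene was read only at its shared start region with the highest mean fold. The list values and the gene-start values therefore differ in unit. Of all shared gene-start regions, 48.8% were lower and 5.21% higher without overlap after centring, and 72.6% higher before it. Differentiating spermatogonia genes had a median centred difference of −0.21, with 6 of 9 lower without overlap and 0 higher. Before centring, 8 of the 9 were higher in cKO without overlap. With 9 genes, neither count is read as apart from the gene-start shares. Kit was the exception, at −0.57 ± 0.15 (limma, adjusted p = 0.337), with overlapping uncentred folds. Dmrt1, which holds spermatogonia from premature meiosis, had 6.44 and 6.56 in wild type against 6.68 and 7.02 in cKO (−0.42 ± 0.16, adjusted p = 0.352). Stra8 had 4.37 and 5.14 against 5.45 and 5.53, and Sohlh2 5.08 and 5.10 against 7.07 and 7.54. These genes therefore spanned a centred range from −0.57 (Kit) to 0.02 (Sohlh2). Undifferentiated spermatogonia genes had a median of −0.18, with 6 of 12 lower. Etv5, a GDNF target, had 9.19 and 10.1 against 10.1 and 10.1, and Zbtb16 (PLZF), a marker of progenitors, 4.08 and 5.49 against 6.41 and 7.11. Retinoid genes had a median of −0.24, with 6 of 9 lower. Rara, a retinoic acid receptor gene, had 5.05 and 4.61 against 5.56 and 4.77, and its centred −0.56 was the lowest of the list. Rarg, another receptor gene, had 3.42 and 4.02 against 4.56 and 5.04, a centred −0.13.

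Genes of meiotic prophase were already open. Of 46, 43 had a start peak in all 4 libraries, against 15359 of all 33069 genes and 12612 of 20661 protein-coding genes. Their median centred difference was −0.10, with 13 of 43 lower and 1 higher without overlap, beside 48.8% and 5.21% of all gene starts. The higher one was Brca2, which loads recombinases onto resected DNA, at 5.53 and 6.94 in wild type against 10.3 and 10.1 in cKO (0.22 ± 0.13, limma, adjusted p = 0.46). Dmc1, the meiotic recombinase, had 5.49 and 6.56 against 7.96 and 10.9, Sycp3, of the chromosome axis, 5.02 and 5.71 against 9.51 and 7, and Rec8, the meiotic cohesin, 7.83 and 6.16 against 11.7 and 9.71. Each was higher in both cKO libraries before centring, and centred differences were 0.14, 0.11 and 0.12. Prdm9, which sets recombination hotspots, had 7.68 and 9.67 against 11.1 and 10.9. Mybl1, a regulator of meiotic genes, had 4.45 and 6.29 against 5.53 and 5.40, the lowest of the list at −0.45. No member passed the test. The piRNA genes had a median of −0.08, with 5 of 14 lower and 0 higher, beside 48.8% and 5.21% of all gene starts. Gtsf1 had 6.20 and 5.79 against 10.4 and 9.26, Mov10l1, a helicase of piRNA biogenesis, 6.04 and 5.96 against 10.4 and 8.79, and Piwil1 4.02 and 4.90 against 4.62 and 4.91.

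ISWI genes had the lowest list median among germ cell and chromatin lists, −0.32, with 9 of 10 lower without overlap after centring and 5 of 10 higher before it, beside 48.8% and 72.6% of all gene starts. Rbbp4, a histone-binding subunit, had 6.66 and 7.60 against 7.33 and 7.40, and Baz1b, a partner of SMARCA5, 6.36 and 8.19 against 8.59 and 8.20. The broadly expressed genes, taken as a reference, had −0.23 with 9 of 13 lower, and p53 and apoptosis genes −0.22 with 8 of 12 lower. The ISWI, p53 and reference lists thus all lay below the gene-start median. Whether taking the strongest region of each gene lowers a list median was not tested. CTCF and cohesin genes had −0.23 with 5 of 8 lower. In that list Ctcfl (BORIS), the germ cell paralog of Ctcf, had 6.04 and 6.21 against 9.84 and 9.51, a centred 0.16 ± 0.15 (limma, adjusted p = 0.617), and Ctcf 4.65 and 5.00 against 5.84 and 5.90, a centred −0.21 ± 0.16 (limma, adjusted p = 0.533).

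The Smarca5 start had a peak in all 4 lists, at 7.90 and 9.74 in wild type against 9.91 and 8.75 in cKO. The centred difference was −0.41 ± 0.14 (limma, adjusted p = 0.344), and the groups overlapped before centring. The labels do not give the deleted part of the gene, and a promoter peak outside it would remain, so it is no check of the knockout. A second, weak region at the start (chr8:80738455-80738593) had folds of 1.87 and 1.91 in cKO and no peak in wild type. Around Smarca5, 101 of 1394 regions within 10 Mb were cKO-only (7.25%), against 8.97% of all other autosomal regions.

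When wild type 1 was left out, regions could be tested that it did not hold. The 3 remaining libraries shared 82674 regions, and limma called 931 higher (1.13%) and 661 lower (0.8%) in cKO, with the lone wild-type library assumed to vary like the cKO pair. Quantile normalisation gave 201 and 105, and loess 2 and 5, so these counts rest on the scaling. At gene starts 69 of 17963 were higher (0.384%) and 80 lower (0.445%), in or near genes 527 (1.28%) and 385 (0.932%) of 41304, and outside genes 335 (1.43%) and 196 (0.837%) of 23407. The regions named here were chosen after their values were seen, as those with the largest differences. Near Galc, the lysosomal galactosylceramidase gene, folds were 3.12 in wild type 2 against 11.9 and 8.31 in cKO (1.45 ± 0.23, adjusted p = 0.000554). Within 4930563M21Rik they were 3.69 against 11.5 and 10.3, and 4C-sorted folds 12.2 and 12.7 in wild type against 19.0 and 19.8 in cKO. Within Auts2 they were 4.07 against 10.3 and 12.5. Wild type 1, which this fit did not use, had uncentred folds of 4.19, 6.41 and 6.68 at these 3 regions. Its folds are lowest over the regions held by all 4 lists (median 4.32, against 5.32 in wild type 2 and 6.74 and 6.81 in cKO). Within 4930563M21Rik and Auts2 wild type 1 was above its own median, whereas wild type 2 was below its own at all 3 regions. The uncentred folds of wild type 1 therefore cannot be set beside the centred differences, and they do not show that it sided with wild type 2.

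The lower regions of that fit split into those that wild type 1 held and those that it did not. Near Dpp10 the folds were 15.0 in wild type 2 against 4.35 and 7.79 in cKO (−1.58 ± 0.22, limma, adjusted p = 0.000104), and wild type 1 had 17.8. Near Cdkn2a wild type 1 had 13.03, as above. Within Nucb2, a nucleobindin gene, folds were 9.53 against 3.19 and 3.42 (−1.75 ± 0.24), and wild type 1 had no peak. Within Atp8a1, a phospholipid flippase gene, they were 10.1 against 3.85 and 4.68, within Pitpnc1, of phosphatidylinositol transfer, 6.44 against 3.01 and 2.60, and within Ctns, the lysosomal cystine transporter gene, 7.51 against 3.65 and 3.19. None of these 4 had a peak in wild type 1 or in any 4C-sorted library. Wild type 2 is also the library with start peaks at all 10 macrophage markers, with a summed fold of 51.4 against 34.3 and 26.5 in cKO. Single markers varied: C1qa had 6.80 in wild type 2 against 4.96 and 4.22 in cKO, and Csf1r 5.05 against 6.26 and 6.45. The part of those cells in these lower regions was not tested.

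Whether a change differed between cKIT+ and 4C-sorted cells was tested at the 17717 regions held by all 8 lists. Limma's interaction of genotype and sort called 0 regions higher (0%) and 1 lower (0.00564%) in cKIT+ cells, with 635 higher and 1466 lower at an unadjusted p under 0.05. The called region was the one within Gm30636, where 4C-sorted folds were 6.42 and 7.84 in wild type against 7.86 and 8.88 in cKO. The centred change of −1.38 in cKIT+ cells and 0.32 in 4C-sorted cells differed by −1.71 ± 0.17 (limma, adjusted p = 0.0425). Only wild-type cKIT+ libraries were high there, and the other 6 lay between 6.42 and 9.19. Without wild type 1 no region was called.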

How the data were processed

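ATAC-seq peak lists of 4 cKIT+ libraries were analysed, with those of 4 libraries sorted on 4C DNA content for comparison. Per the submitters' processing notes, reads were handled with cutadapt, Bowtie2 and MACS2 on mm10; versions and settings are not given in the sources used here. The authors deposited, for each broad peak of each library called separately, a score (not used), a fold ratio over the local background, and −log10 p and −log10 q values. Read totals are not given, so no interval for counting error could be computed. Positions are in mm10, and gene names and promoter sequences come from RefSeq tables of GRCm38.p6, which hold a strand for 25747 of the 33069 autosomal genes used; both gene ends were used for the other 7322. Chromosomes X and Y, the single-cell samples and distal motifs were not analysed here.

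A region took the highest peak fold of each list. Log2 folds were median-centred and fitted with limma 3.58.1 (R 4.3.3, empirical Bayes with a mean trend), adjusted by Benjamini-Hochberg over all regions. The fit was also run on simulated data with the same normal spread in every region and library. That setting holds no deviating library, so it does not test the fit for a library such as wild type 1. Other comparisons used exact permutation over libraries (Python 3.11.15). Named regions were the 10 with the smallest p in each direction whose groups did not overlap and whose sign held without wild type 1, none passing the threshold and 1 not reported here, and the 10 cKO-only and 10 wild-type-only regions of both list lengths with the highest lower fold. The members, lists and tests were chosen with earlier results of these data known. Alternatives were equal-length lists, a −log10 q of 5, other normalisations, 50% coverage, a replicate block and leaving out each library.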

Additional observations from a re-analysis of the deposited data

Results flagged for a closer look

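The region within Gm30636 differed between the sorts by a test of the difference itself: its cKO minus wild-type change was lower in cKIT+ than in 4C-sorted cells on the log2 scale (difference −1.705, limma, adjusted p = 0.0425). With quantile normalisation 1 region was called, and with the replicate block 0.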

How the results depend on the processing

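Depth is unknown for all libraries, and absence from a list is set by its threshold. Median peak width had a log2 ratio of −0.12 as deposited and 0.29 in equal-length lists. Covered length ranged from −0.0436 to 1.49 when each library was left out, and reversed without wild type 1. The Jaccard excess within genotypes ranged from −0.17 to 0.363 and reversed without cKO 1 (−0.17) and without cKO 2 (−0.148). Peak number ranged from 0.144 to 1.48, the share of peaks at gene starts from −16.6 to −0.278 percentage points, and median width from −0.242 to −0.00545. The cKO-only count ranged from 16096 to 69293 and the wild-type-only count from 1717 to 16056. In equal-length lists they were 2250 and 517. For peaks reaching a −log10 q of 5 they were 11159 and 43, and with 50% coverage 17371 and 1095. The shared-region fit gave 0 to 931 regions higher and 0 to 661 lower with 1 library left out, the latter including 10 without cKO 1 and 21 without cKO 2. The start-against-outside difference ranged from −0.15 to −0.0189. In equal-length lists the list genes with a cKO-only start peak fell from 7 to 0 and the wild-type-only ones rose from 1 to 4. The shares with a peak in both wild-type 4C-sorted libraries were 11.02%, 53.6% and 73.4% for cKO-only, wild-type-only and all-4 regions there. The stage test called 1 region as deposited and 0 without wild type 1. The cause of these changes was not tested.

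The labels do not say whether replicate numbers pair the libraries. With 2 pairs, deviations of same-numbered libraries correlated at r = 0.10 over regions, which cannot decide it. With a replicate block the shared-region fit called 117 regions higher and 109 lower, and the stage test 0. All 19 named regions were among them, but they had been picked from these same libraries for their separation, so this is no independent support. Peak number and covered length had exact permutation p of 0.5 and 1 with the block.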
